A study of Homo sapiens with 2 samples.

Results

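Cyclins, cyclin-dependent kinases (CDKs) and CDK inhibitors were described in A549 cells that overexpressed MYOCD and in wild-type A549 cells (WT). The members were taken by symbol from the deposited table: cyclins named CCN with a letter and an optional number or L1, kinases named CDK with a number, and the inhibitors CDKN1B, CDKN1C, CDKN2A, CDKN2B, CDKN2C, CDKN2D and CDKN3. This gave 52 of the 56255 gene symbols, namely 26 cyclins, 19 CDKs and 7 inhibitors. CCNQ and CCNP stand in the table under the older symbols FAM58A and CNTD2. CDK11A, CDK11B and CCNJL have symbols of another form, and CDKN1A was not among the inhibitors named. These 6 genes were therefore not members.

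A549 cells, an established line from a human lung adenocarcinoma, were grown in DMEM with serum. Myocardin, the product of MYOCD, switches on genes of smooth and cardiac muscle by binding the transcription factor SRF. RNA sequencing gave 1 library of the cells overexpressing MYOCD and 1 library of the WT cells, which the labels give as untreated. The labels do not state the promoter and vector behind the overexpression, the time after it began or whether the MYOCD cells were 1 clone. With 1 library in each group no value has a replicate error, no test was possible, and each difference below describes this pair of libraries.

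Cyclins switch on the kinase they bind, and many of those that drive the cell cycle rise and fall through it. D cyclins act with CDK4 and CDK6 in G1, E cyclins with CDK2 at the start of S phase, A cyclins with CDK2 and CDK1 in S phase and G2, and B cyclins with CDK1 in mitosis. A second branch of the family, among them CDK7, CDK8, CDK9, CDK12 and CDK13, works in transcription, where its kinases act on RNA polymerase II. Inhibitors of the INK4 type block CDK4 and CDK6, and those of the CIP/KIP type bind a wider range of cyclin-CDK complexes.

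The values were RPKM, reads scaled by gene length and by library size. The gene lengths used for them are not known, so comparisons between different genes are approximate. MYOCD itself stood at 48.6 RPKM in the MYOCD library and at 0.304 RPKM in WT, in the direction of the labels. In MYOCD 15973 genes had 1 RPKM or more and in WT 16161 genes did, and their median was 10.5 RPKM in MYOCD and 10.6 RPKM in WT. Of 12 epithelial and alveolar markers, which summed to 3628 RPKM in MYOCD and 4211 RPKM in WT, 8 had at least 1 RPKM in a library. Of these 8, KRT18 (1134 RPKM in MYOCD and 1647 RPKM in WT) and KRT8 lay below their WT levels and 6 lay above. Among the 6 were KRT7 (1386 RPKM in MYOCD and 996 RPKM in WT), CDH1 (35.8 RPKM in MYOCD and 35.01 RPKM in WT) and EPCAM, past 2-fold at 2.57 RPKM in MYOCD and 0.889 RPKM in WT. Of the alveolar markers, ABCA3 stood at 6.72 RPKM in MYOCD and 5.55 RPKM in WT and NAPSA at 1.04 RPKM in MYOCD and 0.394 RPKM in WT, while SFTPB, SFTPC, SFTPA1 and NKX2-1 were at or near 0 in both libraries. Summed RPKM was 16.2 in MYOCD and 5.75 in WT over 8 fibroblast markers, of which COL1A1 gave 14.3 in MYOCD and 3.05 in WT. Without COL1A1 the fibroblast sum was 1.94 in MYOCD and 2.69 in WT, and DCN was at 0 in both libraries. The sums were 0.226 in MYOCD and 0.297 in WT over 6 endothelial markers, and 1.68 in MYOCD and 2.52 in WT over 6 blood cell markers, with CDH5, KDR, TEK, VWF, CD3E and PTPRC at 0 in both libraries. The part of these genes in the values below was not tested.

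Nearly all of the counted members, of the cell cycle and of transcription, lay under 2-fold between the libraries, as did most counted genes. The larger differences were in a few members of both kinds. Of the 52 members, 44 had at least 1 RPKM in at least 1 library and were counted. A change of 2-fold or more, on the scale log2((MYOCD RPKM + 0.5)/(WT RPKM + 0.5)), was found upwards in 0 of the 44 members, where 5.42% of all 17350 counted genes were higher by that much. It was found downwards in 1 member, the B-type cyclin gene CCNB3, where 6.35% of all counted genes were lower. The table as a whole also holds very short RNAs, and 742 counted genes, none of them a member, were listed at 0 in 1 library. Among the 12337 counted protein-coding genes, of which 29 were listed at 0 in 1 library, 3.02% were higher and 3.1% lower by 2-fold. The median log2 change was -0.06 over the 44 members and -0.00 over all counted genes. Above 0 lay 19 members and below it 25, where 8647 of all counted genes lay above and 8703 below. In bulk RNA, fewer cells in a phase of the cycle and less RNA per cell cannot be told apart.

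**Figure D1:**
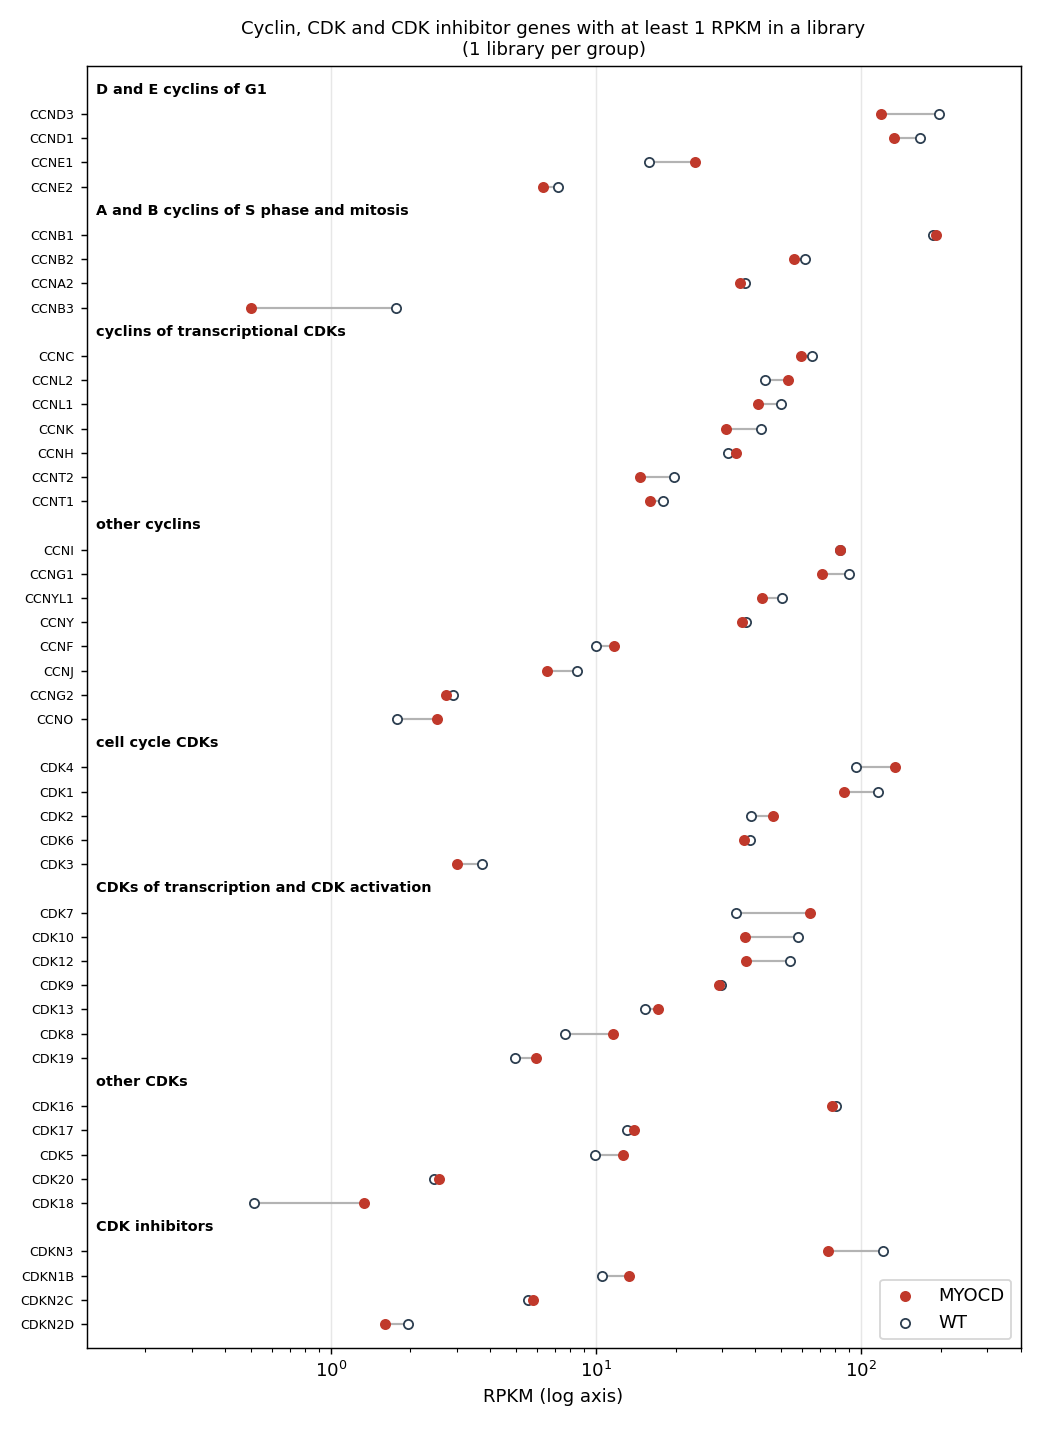
RPKM of the 44 counted members on a log axis, in the MYOCD library (filled red) and in the WT library (open), grouped by role and sorted by mean level, with 1 library per group. CCNB1 lies at nearly the same place in both libraries, CDK7 lies to the right in MYOCD, and CCND3, CDKN3, CDK10 and CDK12 lie to the left in MYOCD.

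A size of 0.5 on the log2 scale, chosen after the members' values were seen, was reached upwards by 4 members (9.09%) and downwards by 5 (11.4%). Among all counted genes 13.9% reached it upwards and 15.9% downwards, and among the protein-coding ones 10.7% and 11.5%. The members were also more abundant (median of the mean RPKM 34.2) than counted genes in general (9.29). At 5 RPKM or more in a library there were 37 members, of which 0 were higher and 0 lower by 2-fold, where 3.93% of genes were higher and 4.46% lower. At a size of 0.5 and the same level, 3 of 37 members reached it upwards, where 10.5% of 11440 genes did, and 4 of 37 downwards, where 11.7% did. Of the 9714 protein-coding genes at that level, 8.59% reached it upwards and 9.08% downwards, and 2.16% were higher and 2.1% lower by 2-fold. The median size of change, taken without its sign, was 0.27 over the 37 members, 0.24 over the 11440 genes and 0.22 over the protein-coding ones. The shares of the members thus lay near those of protein-coding genes in general.

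**Figure D2:**
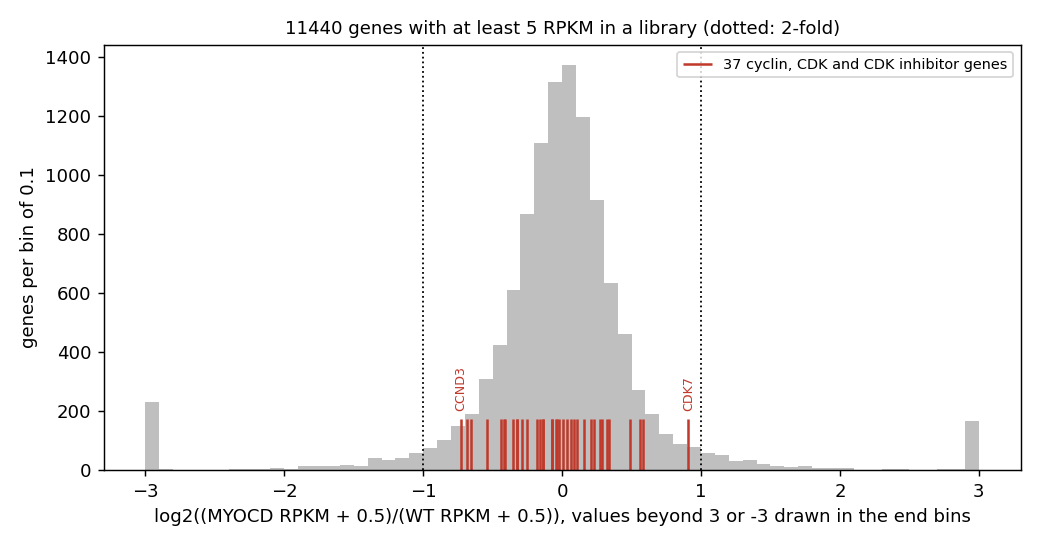
Number of genes by log2 change, MYOCD over WT, for the 11440 genes with at least 5 RPKM in a library (grey bars), with the 37 members of that level as red ticks, 2-fold as dotted lines and outermost bars that gather all values beyond them, among these the 365 genes listed at 0 in 1 library. The members spread over the central part of the distribution, from CCND3 at -0.73 to CDK7 at 0.91.

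The expressed D cyclins, which carry growth signals into G1, were both less abundant in MYOCD, each by less than 2-fold. CCND3 stood at 119 RPKM in MYOCD and 198 RPKM in WT, a log2 change of -0.73, and CCND1 stood at 133 RPKM in MYOCD and 166 RPKM in WT, a log2 change of -0.32. CCND2 was listed at 0 in MYOCD and at 0.0293 RPKM in WT. Summed over these genes, D cyclin RNA came to 252 RPKM in MYOCD and 364 RPKM in WT, a ratio of 0.693. CCND3 was the most abundant of all members in WT and had rank 4 in MYOCD, and its part of the D cyclin sum was 47.3% in MYOCD and 54.3% in WT. CCND3 lies on chromosome 6 from 41934933 to 42050357 on the minus strand (GRCh38). Its neighbour TAF8, on the opposite strand beside the start of CCND3, stood at 7.14 RPKM in MYOCD and 11.2 RPKM in WT, while BYSL on the other side stood at 25.5 RPKM in MYOCD and 26.4 RPKM in WT. Exons of CCND1 share 497 nt with LTO1 on the opposite strand, and it is unknown whether counting used strand, here and for the overlaps named further on.

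The kinases that pair with D cyclins did not share their direction equally. CDK4 stood at 135 RPKM in MYOCD and 95.8 RPKM in WT, a log2 change of 0.49, and CDK6 at 36.4 RPKM in MYOCD and 38.3 RPKM in WT. CDK4 thus had rank 2 among the members in MYOCD and rank 6 in WT. Of the CDK4 gene model 43.2% is shared with exons of TSPAN31 on the opposite strand, which stood at 14.7 RPKM in MYOCD and 21.5 RPKM in WT. While D cyclin RNA summed to less than in WT, the sum of CDK4 and CDK6 was larger, at 171 RPKM in MYOCD and 134 RPKM in WT.

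At the entry into S phase, both CCNE1 and its kinase CDK2 were more abundant in MYOCD, each by less than 2-fold. CCNE1, cyclin E1, stood at 23.7 RPKM in MYOCD and 15.9 RPKM in WT, a log2 change of 0.56. CDK2 stood at 46.6 RPKM in MYOCD and 38.5 RPKM in WT, a log2 change of 0.27, and 14.5% of its model is shared with exons of AC025162.1 on the opposite strand, which stood at 22.7 RPKM in MYOCD and 18.0 RPKM in WT. CCNE2 did not share this direction, with 6.30 RPKM in MYOCD and 7.21 RPKM in WT, though 37.0% of its model is shared with exons of INTS8 on the opposite strand. Cyclin E1 made up 79.02% of the E cyclin sum in MYOCD and 68.8% in WT. CDK3, a relative of CDK2, stood at 2.99 RPKM in MYOCD and 3.71 RPKM in WT, and 91.2% of its model is shared on the same strand with the readthrough gene TEN1-CDK3, so its value is uncertain.

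The main cyclins of S phase and mitosis lay close together in the libraries. CCNB1, the cyclin that brings CDK1 into mitosis, stood at 191 RPKM in MYOCD, where it was the most abundant member, and at 186 RPKM in WT. CCNB2 stood at 55.9 RPKM in MYOCD and 61.6 RPKM in WT, and CCNA2 at 34.9 RPKM in MYOCD and 36.6 RPKM in WT. CCNA1, which is known from the germ line, was listed at 0 in MYOCD and at 0.0284 RPKM in WT. CCNB3, known for its part in meiosis, was the 1 member past 2-fold, at 0.501 RPKM in MYOCD and 1.76 RPKM in WT, a log2 change of -1.18. It was counted through the WT library alone, and at that level its change depended on the pseudocount.

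CDK1 and CDKN3 differed more than the cyclins beside them. CDK1, the mitotic kinase, stood at 86.7 RPKM in MYOCD and 116 RPKM in WT, a log2 change of -0.41. CDKN3, a phosphatase that removes the activating phosphate from CDKs, stood at 75.1 RPKM in MYOCD and 121 RPKM in WT, a log2 change of -0.68. Both genes and CCNB2 are known to be transcribed late in the cycle, and genes of that kind often carry a CHR element, with the letters TTTGAA, in their promoters. The promoters of these 3 genes are shown because their RNAs are known to peak together while their values here differed. The windows run from 250 bases before to 50 bases after a RefSeq start (GRCh38.p14), and capitals mark TTTGAA on either strand.
CDK1, chr10:60778228-60778527, plus strand: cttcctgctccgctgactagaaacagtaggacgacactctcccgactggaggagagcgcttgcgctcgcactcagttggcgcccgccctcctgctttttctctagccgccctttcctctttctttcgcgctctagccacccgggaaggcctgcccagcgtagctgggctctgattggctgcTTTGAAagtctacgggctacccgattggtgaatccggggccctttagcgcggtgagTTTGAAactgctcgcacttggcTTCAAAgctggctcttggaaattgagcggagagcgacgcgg
CDKN3, chr14:54396757-54397056, plus strand: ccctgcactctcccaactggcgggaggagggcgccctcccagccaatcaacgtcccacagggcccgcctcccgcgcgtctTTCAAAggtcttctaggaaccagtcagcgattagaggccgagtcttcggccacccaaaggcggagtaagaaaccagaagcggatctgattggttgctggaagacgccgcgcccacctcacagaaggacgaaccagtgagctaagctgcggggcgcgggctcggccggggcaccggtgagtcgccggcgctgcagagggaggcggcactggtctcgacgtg
CCNB2, chr15:59104896-59105195, plus strand: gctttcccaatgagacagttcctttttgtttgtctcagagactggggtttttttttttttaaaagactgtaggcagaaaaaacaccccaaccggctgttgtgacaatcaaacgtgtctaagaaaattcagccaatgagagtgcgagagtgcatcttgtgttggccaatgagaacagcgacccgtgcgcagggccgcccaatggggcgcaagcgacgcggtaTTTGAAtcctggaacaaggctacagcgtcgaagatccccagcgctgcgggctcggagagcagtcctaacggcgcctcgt

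The CDK1 window, the downstream of a pair of windows listed for this gene, holds 3 matches, and the windows of CDKN3 and CCNB2 hold 1 each. Of the 47 members with a window, 7 held the motif in at least 1 window (CCNB2, CCNC, CCNF, CCNI, CDK1, CDK19 and CDKN3), or 14.9%, where 18.2% of all 27305 symbols with a window did. By window, 8 of the 69 member windows held it, or 11.6%, and 15.2% of all 35116 windows. Their log2 changes ranged from -0.68 for CDKN3 to 0.23 for CDK19. No member window held a CArG box, the site that SRF binds, on either strand, and 1.29% of all windows held one. These are matches of letters in short windows and describe neither binding nor its absence. Windows were not found under the symbols CCND1, CCND2, CCNE2, CDK2 and CDKN1C.

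CDK7 had the largest gain among members with at least 5 RPKM. This kinase activates other CDKs by phosphorylating them and, as part of the general transcription factor TFIIH, phosphorylates RNA polymerase II. It stood at 64.04 RPKM in MYOCD and 33.9 RPKM in WT, a ratio of 1.89 and a log2 change of 0.91, and had rank 10 among the members in MYOCD and rank 22 in WT. Among the 11440 genes with at least 5 RPKM, 518 or 4.53% had a log2 change as high or higher, and among the 9714 protein-coding ones 264 or 2.72%.

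The partners of CDK7 did not share its change. Its cyclin gene CCNH, which shares 12.7% of its model with exons of RASA1 on the opposite strand, stood at 33.9 RPKM in MYOCD and 31.4 RPKM in WT, and MNAT1, which encodes the assembly factor of the complex, stood at 38.04 RPKM in MYOCD and 38.9 RPKM in WT. CDK7 RNA thus exceeded that of either partner in MYOCD and lay between them in WT. Of the 7 genes of the TFIIH core, GTF2H4 had the largest difference, with 14.6 RPKM in MYOCD and 10.1 RPKM in WT, and their sums were 119.9 RPKM in MYOCD and 121 RPKM in WT.

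On chromosome 5 (GRCh38), CDK7 occupies 69234795 to 69277430 of the plus strand, and another member, CCNB1, lies close by, from 69167010 to 69178245. The genes between them were lower in MYOCD: CENPH, a centromere protein gene, stood at 30.2 RPKM in MYOCD and 36.3 RPKM in WT, and MRPS36 at 36.3 RPKM in MYOCD and 54.6 RPKM in WT. On the far side of CDK7, CCDC125 stood at 5.42 RPKM in MYOCD and 5.58 RPKM in WT, AK6 at 58.6 RPKM in MYOCD and 49.2 RPKM in WT, a log2 change of 0.25, and TAF9 at 60.5 RPKM in MYOCD and 60.4 RPKM in WT. No exon of another annotated gene overlaps the exons of CDK7 in GENCODE release 29.

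**Figure D3:**
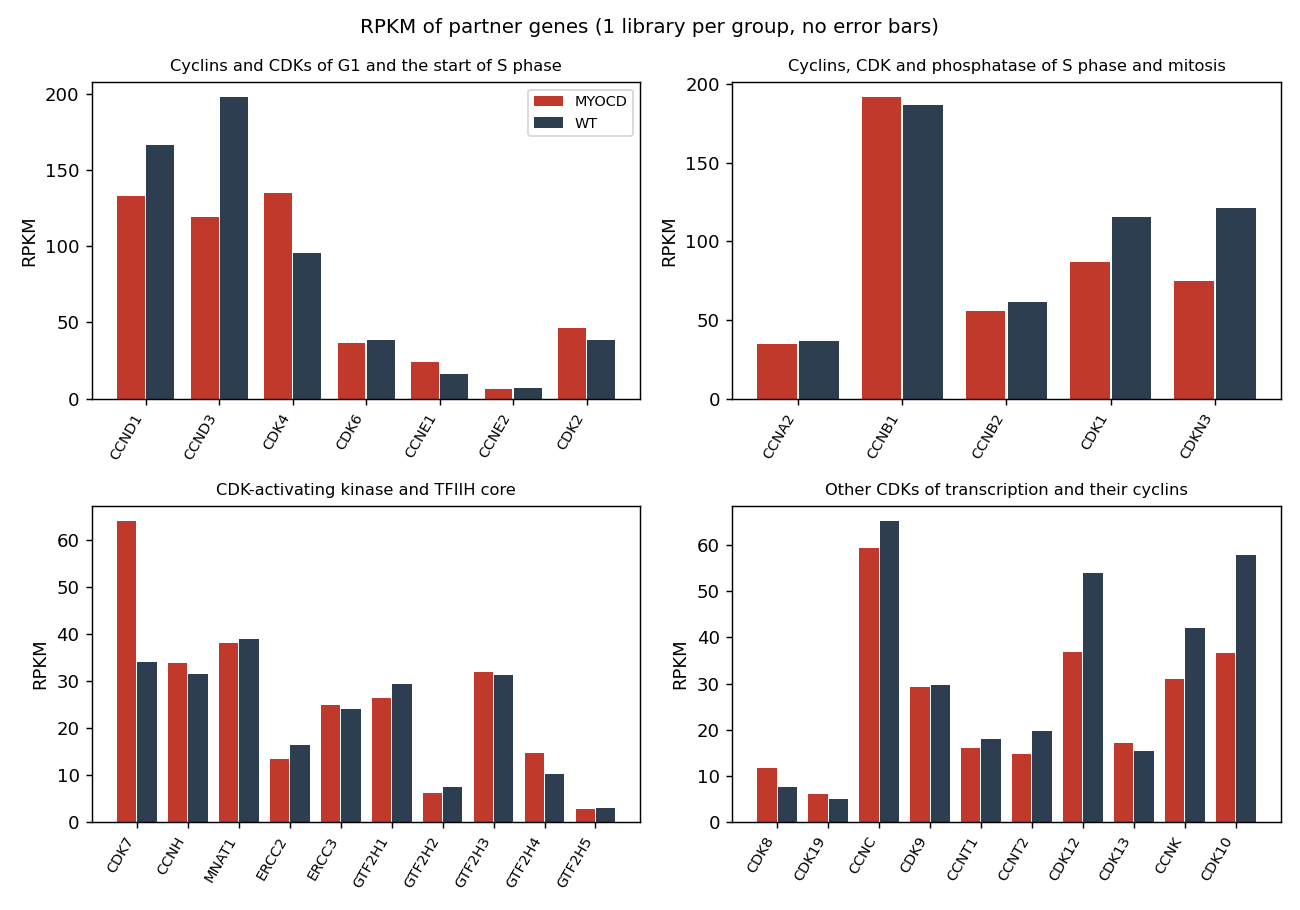
RPKM of members and their partner genes as bars from 0, MYOCD in red left of WT in dark blue, with 1 library per group and therefore no error bars. CDK7 stands above CCNH and MNAT1 in MYOCD (64.04 against 33.9 and 38.04 RPKM), CDK4 stands higher in MYOCD while CCND1 and CCND3 stand lower, and CCNB1 is nearly level.

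The kinases of the Mediator complex, which links transcription factors to RNA polymerase II, were both more abundant in MYOCD. CDK8 stood at 11.7 RPKM in MYOCD and 7.63 RPKM in WT, a log2 change of 0.58. Its paralog CDK19 stood at 5.94 RPKM in MYOCD and 4.98 RPKM in WT, a log2 change of 0.23. Their cyclin CCNC was in excess of both, at 59.5 RPKM in MYOCD and 65.4 RPKM in WT. Of the module's other subunits, MED12 and MED13 lay at 15.9 and 29.9 RPKM in MYOCD and at 15.7 and 26.8 RPKM in WT. Their paralogs were lower in MYOCD: MED13L stood at 35.2 RPKM in MYOCD and 50.9 RPKM in WT, and the low gene MED12L at 1.22 RPKM in MYOCD and 1.93 RPKM in WT.

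CDK12 and cyclin K, which act together on elongating RNA polymerase II, were both less abundant in MYOCD. CDK12 stood at 36.8 RPKM in MYOCD and 53.9 RPKM in WT, a log2 change of -0.54, and CCNK at 31.0 RPKM in MYOCD and 42.1 RPKM in WT, a log2 change of -0.44. CDK13, which shares cyclin K with CDK12, stood at 17.2 RPKM in MYOCD and 15.4 RPKM in WT. Of the CCNK model 59.5% is shared with exons of CCDC85C on the opposite strand, which stood at 15.7 RPKM in MYOCD and 14.7 RPKM in WT.

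P-TEFb, the complex of CDK9 with a T cyclin, releases paused RNA polymerase II. CDK9 stood at 29.2 RPKM in MYOCD and 29.7 RPKM in WT. Of its cyclins, CCNT1 stood at 16.1 RPKM in MYOCD and 17.98 RPKM in WT, and CCNT2 at 14.7 RPKM in MYOCD and 19.8 RPKM in WT. HEXIM1, which holds P-TEFb inactive, stood at 35.7 RPKM in MYOCD and 47.5 RPKM in WT, and LARP7 of the same inhibitory particle at 19.7 RPKM in MYOCD and 26.2 RPKM in WT. All 7 genes of this set lay under 2-fold.

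CDK10 had the largest loss among the CDKs, at 36.5 RPKM in MYOCD and 57.9 RPKM in WT, a log2 change of -0.66. Its cyclin, listed as FAM58A, stood at 16.5 RPKM in MYOCD and 14.98 RPKM in WT. The L cyclins, which are linked to RNA splicing, diverged: CCNL1 stood at 40.9 RPKM in MYOCD and 50.1 RPKM in WT, and CCNL2 at 53.2 RPKM in MYOCD and 43.4 RPKM in WT.

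The remaining cyclins lay under 2-fold. CCNG1, a target gene of p53, stood at 71.6 RPKM in MYOCD and 89.9 RPKM in WT. CCNI stood at 83.8 RPKM in MYOCD and 83.2 RPKM in WT, and CCNY, which recruits CDK14 and CDK16 to membranes, at 35.7 RPKM in MYOCD and 36.9 RPKM in WT. CCNYL1, a relative of CCNY, stood at 42.3 RPKM in MYOCD and 50.6 RPKM in WT, and 564 nt of its model are shared with AC096772.1 on the opposite strand (51.9 RPKM in MYOCD and 69.1 RPKM in WT). CCNF, which works as the substrate receptor of a ubiquitin ligase, stood at 11.7 RPKM in MYOCD and 10.03 RPKM in WT. CCNJ (6.55 RPKM in MYOCD and 8.52 RPKM in WT), CCNG2 (2.73 RPKM in MYOCD and 2.90 RPKM in WT) and CCNO (2.51 RPKM in MYOCD and 1.79 RPKM in WT), the last known for making multiple cilia, were low. CCNI2 was listed at 0.0294 RPKM in MYOCD and 0.152 RPKM in WT.

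Of the other CDKs, 1 counted gene lay under 2-fold only through the pseudocount. CDK18 stood at 1.34 RPKM in MYOCD and 0.512 RPKM in WT, a ratio of 2.61, and was counted through the MYOCD library alone. Its log2 change was 0.86 with the pseudocount of 0.5 RPKM and 1.23 with 0.1 RPKM. CDK16 stood at 78.0 RPKM in MYOCD and 80.2 RPKM in WT, CDK17 at 13.9 RPKM in MYOCD and 13.1 RPKM in WT, and CDK20 at 2.55 RPKM in MYOCD and 2.46 RPKM in WT. CDK5, known for its work in neurons, stood at 12.7 RPKM in MYOCD and 9.96 RPKM in WT, and 11.3% of its model is shared with exons of SLC4A2 on the opposite strand (128 RPKM in MYOCD and 111 RPKM in WT). Its activator genes CDK5R1 and CDK5R2 were low, at 2.50 and 1.26 RPKM in MYOCD and at 2.52 and 0.585 RPKM in WT. CDK14 was under the filter, at 0.639 RPKM in MYOCD and 0.237 RPKM in WT, and CDK15 was listed at 0 in both libraries.

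Inhibitor RNAs of the INK4 type were scarce. CDKN2A and CDKN2B, neighbours on chromosome 9 from 21967753 to 21995301 and from 22002903 to 22009363, were listed at 0 in MYOCD, and in WT at 0.0950 and 0 RPKM. Loss of the CDKN2A gene is known in A549. The flanking MTAP gene was expressed, at 17.1 RPKM in MYOCD and 9.39 RPKM in WT, while CDKN2B-AS1, which overlaps the locus on the opposite strand, was listed at 0.452 RPKM in MYOCD and 0.161 RPKM in WT. The other INK4 genes were CDKN2C, at 5.82 RPKM in MYOCD and 5.54 RPKM in WT, and CDKN2D, at 1.60 RPKM in MYOCD and 1.96 RPKM in WT. The INK4 sum was 7.42 RPKM in MYOCD and 7.60 RPKM in WT, far under the sum of their targets CDK4 and CDK6 in either library.

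Among the CIP/KIP genes, CDKN1B, which encodes p27, stood at 13.4 RPKM in MYOCD and 10.6 RPKM in WT, a log2 change of 0.33. CDKN1C, which encodes p57, was under the filter at 0.0657 RPKM in MYOCD and 0.301 RPKM in WT. CDKN1A, the p53 target that encodes p21, was the most abundant inhibitor gene of this type though outside the members, at 70.8 RPKM in MYOCD and 81.6 RPKM in WT. Of the further relatives, CDK11A stood at 14.7 RPKM in MYOCD and 15.8 RPKM in WT, CDK11B at 7.08 RPKM in MYOCD and 6.71 RPKM in WT, and CCNJL at 7.08 RPKM in MYOCD and 9.12 RPKM in WT. CDK11A and CDK11B are near-identical copies, and it is unknown how reads common to them were split.

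**Figure D4:**
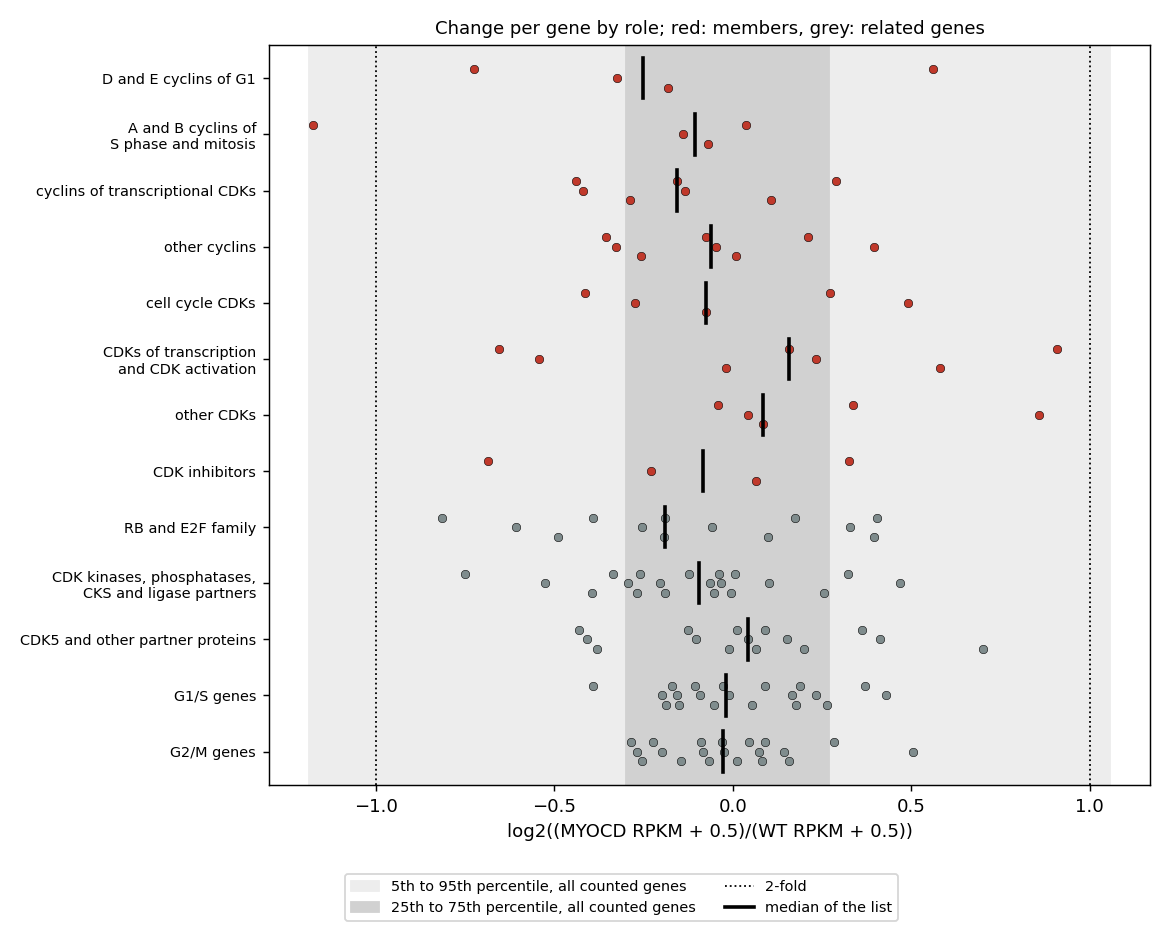
The log2 change of each counted gene, MYOCD over WT, by role, with members in red and related genes in grey, the black bar at each list's median, dotted lines at 2-fold, and grey bands for the central ranges of all 17350 counted genes. CCNB3 is the 1 gene past 2-fold in these lists, and the G1/S and G2/M genes cluster within 0.51 of 0.

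In the 5 related lists of genes around the members, no counted gene reached 2-fold on the log2 scale with its pseudocount. That size was rare in general, as 3.02% of counted protein-coding genes were higher and 3.1% lower by as much. CDK5R2, a low gene given above, had a ratio of 2.16 without the pseudocount. Of 13 RB and E2F genes, which control entry into S phase, 5 lay above 0 and 8 below, with a median of -0.19. E2F8, a repressor of the family, had the largest difference, at 3.97 RPKM in MYOCD and 7.37 RPKM in WT. By the mean of the libraries the most abundant were TFDP1 (59.8 RPKM in MYOCD and 52.9 RPKM in WT), E2F4 (39.5 RPKM in MYOCD and 29.7 RPKM in WT) and E2F6 (16.4 RPKM in MYOCD and 25.2 RPKM in WT). RB1, the gene of the retinoblastoma protein that CDK4 and CDK6 phosphorylate, stood at 19.1 RPKM in MYOCD and 15.1 RPKM in WT.

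Of 20 kinases, phosphatases, CKS proteins and ubiquitin ligase partners of CDKs, 5 lay above 0 and 15 below, with a median of -0.09. CDC25B, a phosphatase that activates CDK1, had the largest difference, at 84.2 RPKM in MYOCD and 142 RPKM in WT, while CDC25A (8.96 RPKM in MYOCD and 9.21 RPKM in WT) and CDC25C (5.73 RPKM in MYOCD and 6.61 RPKM in WT) differed less. WEE1, the kinase that holds CDK1 inactive, stood at 30.5 RPKM in MYOCD and 35.2 RPKM in WT. The abundant genes of this list were SKP1 (224 RPKM in MYOCD and 225 RPKM in WT), CKS2 (184 RPKM in MYOCD and 220.2 RPKM in WT) and CKS1B (170.2 RPKM in MYOCD and 178 RPKM in WT). The 15 counted genes of the list of CDK5 and other partner proteins had a median of 0.04, with CDK2AP1 (102 RPKM in MYOCD and 78.9 RPKM in WT), CDK5RAP3 (50.2 RPKM in MYOCD and 54.0 RPKM in WT) and HEXIM1, given above, the most abundant.

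Genes used as a readout of cycling cells gave nearly equal sums. The 20 G1/S genes summed to 1487 RPKM in MYOCD and 1484 RPKM in WT, with a median log2 change of -0.02 and a range from -0.39 for CDC6 to 0.43 for CDC45, both of which act in loading or starting the replicative helicase. The most abundant were PCNA (230.4 RPKM in MYOCD and 257 RPKM in WT), MCM4 (185 RPKM in MYOCD and 186 RPKM in WT) and RRM2 (161 RPKM in MYOCD and 142 RPKM in WT). The 20 G2/M genes summed to 1188 RPKM in MYOCD and 1196 RPKM in WT, with a median of -0.03. By the mean of the libraries TOP2A (194 RPKM in MYOCD and 192 RPKM in WT), ECT2 (85.6 RPKM in MYOCD and 104 RPKM in WT) and PLK1 (87.3 RPKM in MYOCD and 88.8 RPKM in WT) were the most abundant of them. Their largest difference was that of FOXM1, a transcription factor of late cycle genes, at 60.7 RPKM in MYOCD and 42.6 RPKM in WT. CDK1 and CDKN3 thus lay further below their WT levels than any of the 20 G2/M genes, of which ECT2 was the lowest with a log2 change of -0.29.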

How the data were processed

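RNA was taken with Trizol and sequenced after preparation with the Illumina TruSeq RNA kit, per the labels' protocols. RPKM values per gene were made by the authors, per the file headers, and used as deposited. Bowtie 0.12.2 and the builds mm8 (a mouse assembly) and GRCh38.p12 are named without a role in the submitters' processing notes. Read counter, annotation and strand setting: not given in the sources used here.

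Of 57979 rows with 56255 symbols, 248 symbols stood on several rows, and the row with the higher mean was used. All 52 members stood on 1 row. Positions, lengths and overlaps came from GENCODE release 29, which held all 52 member identifiers and gave the protein-coding class. With 1 library per group no test was run. Genes with at least 1 RPKM in a library were counted, log2 changes used a pseudocount of 0.5 RPKM, which understates the change of low genes, and 2-fold was the size called. RPKM holds no counts. Steps of single reads were sought in low values of 1-transcript models of at least 2000 nt. At the best step, 30.5% of values in MYOCD and 27.9% in WT lay within 0.1 of a whole read. Chance gives 20% for a fixed step and more for a step chosen as the best, as here. Depth is therefore unknown, no counting error can be given and no count test was run. Promoter windows came from RefSeq. Every member could be named, as could the 3 most abundant genes of each related list and those at 2-fold. Members, lists and alternatives were chosen with earlier results of these data known, and the size of 0.5, the complexes, the neighbours, the motifs and the other genes named from the related lists (such as RB1, E2F8, CDC25B and FOXM1) after member values were seen. Python 3.11.15, numpy 2.4.6 and pandas 2.3.3 were used. A check of the fold rule used simulated data with planted changes beyond 2-fold and little noise, so it gives no error rate for these libraries.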

Additional observations from a re-analysis of the deposited data

How the results depend on the processing

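The median log2 change of the members, -0.0575, was -0.0581 with a pseudocount of 0.1 RPKM, -0.0549 with 1 RPKM, -0.0715 without a filter (52 members), -0.0457 with at least 5 RPKM (37 members), -0.0481 with equal total RPKM, -0.0621 with trimmed scaling and -0.0715 with CDK11A, CDK11B, CCNJL and CDKN1A added, and did not move when rows of a symbol were summed. It changed sign to 0.0284 when the median of 11 reference genes taken as steady was set to 0, an alternative added after seeing the data. That setting raised the median of all genes to 0.08 and changed the sign of 5 members, CCNA2, CCNY, CDK16, CDK6 and CDK9. With it 24 members lay above 0 and 20 below, so the count of directions also turned. The reference genes were not all level in this pair, with log2 changes from -0.62 for CHMP2A to 0.20 for REEP5, 4 above 0 and 7 below. CHMP2A stood at 58.6 RPKM in MYOCD and 90.6 RPKM in WT, a change between those of CDK12 (-0.54) and CDK10 (-0.66). With a pseudocount of 0.1 RPKM, 1 member (CDK18) was higher by 2-fold. With 1 RPKM, 0 members were lower, as with at least 5 RPKM, where CCNB3 was not counted. With at least 5 RPKM, 450 of 11440 genes (3.93%) were higher and 510 (4.46%) lower. With protein-coding genes only, added after seeing the data, 372 of 12337 (3.02%) were higher and 382 (3.1%) lower. Fewer genes were counted in both settings, and the shares were also smaller than the 5.42% and 6.35% of all counted genes. The directions of CCND3, CDKN3, CDK1, CDK7, CDK4 and CCNE1 held under each pseudocount and scaling, but this was fixed in advance. A pseudocount cannot turn a sign, and no scaling moved a member by more than 0.087, less than the change of each of these genes. The settings therefore do not measure the error of 1 library per group. Depth is unknown and limits what can be said of members near 1 RPKM. No paired analysis was possible because each group has 1 library.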
